A study of Mus musculus with 8 samples.

Results

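Bone morphogenetic proteins (BMPs) are secreted growth factors of the TGF-β superfamily. They bind a complex of type I and type II serine/threonine kinase receptors, which phosphorylates SMAD1, SMAD5 and SMAD9, and these enter the nucleus together with SMAD4. Secreted antagonists hold the ligand away from its receptors, and the balance of ligand and antagonist sets how far BMP signalling reaches in developing and adult epithelia, the ocular surface among them. The 9 genes described here are 6 secreted antagonists (Nog, Chrd, Chrdl1, Grem1, Fst and Fstl1), the pseudoreceptor Bambi, and the receptors Bmpr1a and Bmpr2. They were chosen by gene symbol from the 23420 named genes of the comparison of cornea and limbus, with earlier results of these data known.

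The study asked which genes distinguish the limbal rim, the ring between cornea and sclera where the stem cells of the corneal epithelium reside, from the corneal button inside that ring. Both tissues came from wild type adult C57BL/6J mice with no treatment, and the dissected rims and buttons were each pooled over eyes before total RNA was extracted and sequenced. The sample labels number 4 samples for each tissue from L001 to L004, but the data behind this comparison hold 1 cornea library and 1 limbus library. Since each tissue is 1 library, differences could not be checked against a spread between replicates, and no test across replicates was made. Reads per library were worked back from the deposited means. Reads on named genes came to 26104317 for the cornea and 21182025 for the limbus. Normalized reads are these reads after division by the size factor of the library, which was 1.03 for the cornea and 0.967 for the limbus. Ratios are given as limbus over cornea on the log2 scale, each with a confidence interval (95% CI) obtained by turning the exact Clopper-Pearson bounds on the limbal part of the reads into ratios. PCR copies are not independent molecules, and no use of molecular identifiers is described, so the intervals cover only the error of counting. A gene is called higher in a tissue beyond counting error where the interval excludes 0 and at least 1 library has more than 3 reads, the limit that a count of 0 allows.

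Which library is the cornea was set from the reads of Krt12, Krt5, Kera, Krt15, Krt14 and Krt19, so these genes are no check of the labels. Of the other markers of these epithelia, Aldh3a1 and Pax6 of the corneal epithelium were higher in the cornea, with log2 ratios of -1.22 and -0.69, and Krt13 and Krt4 of limbal and conjunctival epithelium were higher in the limbus, with log2 ratios of 1.86 and 5.16. The limbus library also held more reads of markers of other tissues, some at the rim and some, such as lens and photoreceptors, inside the eye. All 5 skeletal muscle markers were higher there (summed normalized reads 33.9 in the cornea against 8888 in the limbus). So were 5 of 5 for smooth muscle and pericytes (53.2 and 1732), 5 of 5 for blood vessel endothelium (232 and 2503) and 5 of 5 for melanocytes (306 and 1644). The same held for 4 of 4 for mast cells (2.90 and 387, with 2 of them at 0 in the cornea) and 3 of 3 for lens (743 and 8083). It also held for 3 of 3 for photoreceptors (517 and 5088) and 3 of 3 for trabecular meshwork (666 and 8173). Sums differed less for lymphatic endothelium (4 of 4, 2247 and 3410) and leukocytes (4 of 5, 459 and 943). They also differed less for Schwann cells (4 of 4, 4247 and 6958) and corneal endothelium (4 of 4, 14468 and 22417). Pdpn (log2 ratio 0.43) and Mbp (0.44) held most reads of the lymphatic and Schwann lists. Of all genes with more than 3 reads in a library, 35.5% were called higher in the limbus. Keratocyte markers did not move together, with 1 higher in the limbus, 2 in the cornea (Kera among them) and 1 within counting error, and of 2 goblet cell markers with enough reads 1 was higher in the limbus. The part of these tissues in the ratios given here was not tested. In bulk tissue, fewer cells of a type and less RNA per cell cannot be told apart.

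The antagonist promoters are shown for 1 gene that was read in both libraries and 1 that was read in neither. RefSeq start sites of GRCm38.p6 were at hand for 5 of the 9 genes, namely Bmpr1a, Bmpr2, Chrd, Fstl1 and Grem1, and for Chrd and Grem1 the 250 bases before the start hold no annotated exon. The Chrd window is chr16:20732877-20733126 on the plus strand and the Grem1 window is chr2:113758649-113758898 on the minus strand, both written 5′ to 3′ along the gene. Capitals mark GGCGCC, a GC-rich sequence that SMAD1 and SMAD5 can bind.
Chrd: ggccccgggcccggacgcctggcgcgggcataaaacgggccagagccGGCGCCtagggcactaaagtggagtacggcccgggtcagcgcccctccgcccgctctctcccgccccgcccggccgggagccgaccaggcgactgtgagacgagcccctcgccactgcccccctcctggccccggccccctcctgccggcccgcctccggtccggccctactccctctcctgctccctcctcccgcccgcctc
Grem1: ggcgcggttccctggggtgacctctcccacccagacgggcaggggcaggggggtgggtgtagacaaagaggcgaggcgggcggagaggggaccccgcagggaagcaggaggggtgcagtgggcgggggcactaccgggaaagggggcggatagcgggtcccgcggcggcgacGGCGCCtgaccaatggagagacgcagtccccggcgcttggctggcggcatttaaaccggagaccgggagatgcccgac
The windows are rich in G and C, at 78.0% for Chrd and 72.0% for Grem1 against a median of 52.4% over all RefSeq promoters of the same length. Each holds 1 GGCGCC, beginning 203 bases before the start in Chrd and 78 bases before it in Grem1. GGCGCC is its own reverse complement, so a search of 1 strand covers both, and 3149 of 32851 promoters (9.59%) hold it. The windows of Bmpr1a and Bmpr2 hold 1 GGCGCC each and that of Fstl1 holds none. Annotated exons cover 141 of the 250 bases of the Bmpr1a window, all 250 of the Bmpr2 window and 182 of the Fstl1 window. The match in Bmpr2 therefore lies in exon sequence. The palindrome GTCTAGAC, which SMAD3 and SMAD4 bind, is in none of the 5 windows and in 55 of all promoters (0.167%). A match of letters is a description of the window and not a binding site.

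Of the 9 genes, 8 had reads and each of the 8 passed the limit of more than 3 reads in a library. The secreted antagonists and the signalling receptors lay on opposite sides. Nog, Chrdl1, Fst, Chrd and Fstl1 were higher in the limbus, by 7.48-fold to 2.61-fold, Bambi was higher in the limbus by 1.51-fold, and Bmpr2 and Bmpr1a were higher in the cornea by 1.49-fold and 1.74-fold. Beyond counting error, the limbus was higher for 6 of the 8 and the cornea for 2. Among the 15572 genes with more than 3 reads in a library, the same rule called 35.5% higher in the limbus, and it called 36.7% higher in the cornea. At least 2-fold higher in the limbus were 5 of the 8, against 21.7% of all genes, and 0 of the 8 were at least 2-fold higher in the cornea, against 9.21%. The 8 genes had a median log2 ratio of 1.70, while the median over all genes was 0.01. With a mean of at least 50 normalized reads, which leaves out Nog, Chrdl1 and Chrd, the median was 0.60, with 3 genes higher in the limbus. The shares and the median of all genes given here were not taken at this filter. All 8 directions held with the interval when the libraries were scaled to total reads, which raises every log2 ratio by 0.21, or by a trimmed mean, which raises them by 0.02. Scaling to total reads moved the background too, to 46.8% of genes higher in the limbus and 26.9% higher in the cornea.

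**Figure D1:**
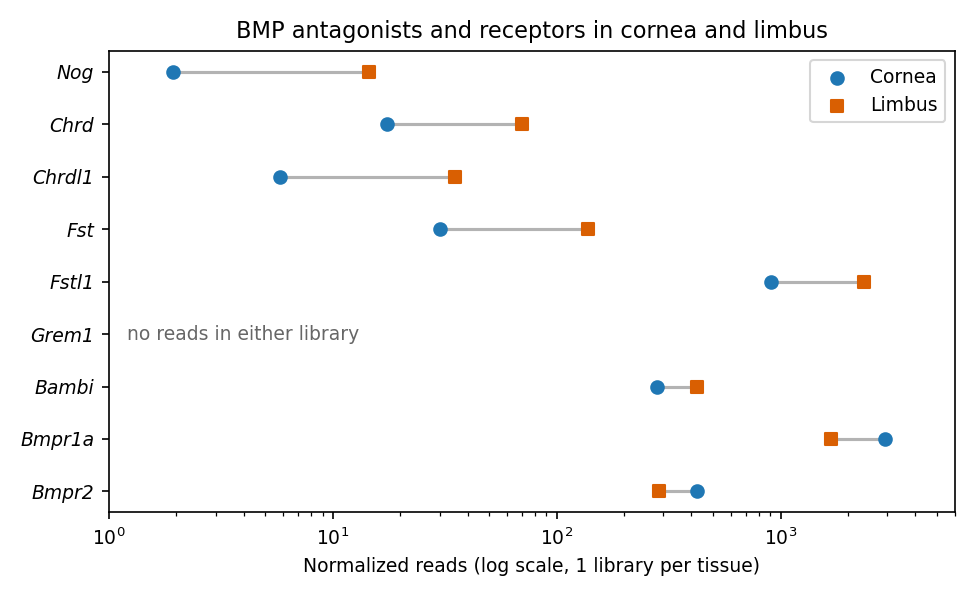
Normalized reads (horizontal log axis) of the 9 genes (rows) in the cornea library (circles) and the limbus library (squares), 1 library per tissue, so no error bars are drawn. The limbus square lies to the right for Nog, Chrd, Chrdl1, Fst, Fstl1 and Bambi and to the left for Bmpr1a and Bmpr2, and Grem1 had no reads.

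Among the antagonists, Nog encodes noggin, a dimeric protein that covers the receptor binding faces of BMP2, BMP4 and BMP7. Nog had 2 corneal and 14 limbal reads, or 1.93 and 14.5 normalized reads. The limbus value was 7.48-fold that of the cornea, but 2 reads carry little information and the interval reaches from 1.72-fold to 67.8-fold (log2 ratio 2.90, 95% CI 0.78 to 6.08). With the cornea set to 3 reads the log2 ratio was 2.32. Nog is a gene of 1 exon on chromosome 11 from 89300638 to 89302332 on the minus strand (GRCm38, as are all positions below), and no annotated gene overlaps it.

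Chrd and Chrdl1 encode chordin and chordin-like 1, which bind BMPs through cysteine-rich von Willebrand C repeats. In humans, loss of chordin-like 1 enlarges the cornea in X-linked megalocornea. Chrdl1 had 6 corneal and 34 limbal reads, which gave 5.80 and 35.1 normalized reads, a 6.06-fold difference (95% CI 2.51 to 17.6). It lies on the X chromosome from 143285674 to 143394262 on the minus strand with no overlapping gene. Chrd had 18 corneal and 68 limbal reads, which gave 17.4 and 70.3 normalized reads, a 4.04-fold difference (95% CI 2.37 to 7.21). It lies on chromosome 16 from 20733127 to 20742384 on the plus strand. Thpo, a protein-coding gene on the other strand, overlaps Chrd. Whether the counting used strand is not given in the sources used here, so reads of Thpo in the Chrd value cannot be told apart. The CIs of both chordin genes lie above a ratio of 2, and they overlap each other and that of Nog.

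Fst and Fstl1 encode follistatin, which traps activins tightly and several BMPs more weakly, and follistatin-like 1, a secreted glycoprotein that can bind BMPs but shares only part of the follistatin structure. Fst had 31 corneal and 134 limbal reads, or 29.99 and 138.5 normalized reads, a ratio of 4.62 (95% CI 3.11 to 7.07). The gene lies on chromosome 13 from 114452290 to 114458951 on the minus strand, opposite the annotated antisense gene Gm47040. Fstl1 was the most deeply read of the 6 antagonists, with 933 corneal and 2277 limbal reads. Its 902.5 and 2354 normalized reads gave a ratio of 2.61 (95% CI 2.42 to 2.82), the smallest and the most precise of the 5 antagonist ratios. Fstl1 lies on chromosome 16 from 37776873 to 37836514 on the plus strand, and no gene overlaps it. The intervals of Fst and Fstl1 do not overlap, so the follistatin ratio was the larger of the pair beyond counting error.

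Grem1 encodes gremlin 1, a BMP antagonist of the DAN family that takes part in limb and kidney development. It has a row in the table but was listed at 0 in both libraries. The gene lies on chromosome 2 from 113746164 to 113758646 on the minus strand. A count of 0 allows up to 3 reads in each library, so Grem1 was not detectable at this depth, and no ratio is given.

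Bambi and the receptors were next. Bambi encodes a transmembrane protein that resembles a type I receptor but has no kinase domain, and it dampens BMP, activin and TGF-β signals. Bambi had 290 corneal and 410 limbal reads. The 280.5 and 423.8 normalized reads differ by 1.51-fold (95% CI 1.30 to 1.76). Of all genes, 27.6% had a higher log2 ratio, so Bambi sits near the upper quartile of all genes (0.76) and not beyond it. No annotated gene overlaps Bambi.

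Bmpr1a encodes the type I receptor ALK3 and Bmpr2 the type II receptor that phosphorylates it. Bmpr1a had 3019 corneal and 1625 limbal reads, or 2920 and 1680 normalized reads, and was 1.74-fold higher in the cornea (95% CI 1.64 to 1.85). Bmpr2 had 440 corneal and 277 limbal reads, or 425.6 and 286.3 normalized reads, and was 1.49-fold higher in the cornea (95% CI 1.28 to 1.73). The intervals of the receptors overlap each other and no other interval of the 8 genes. Of all genes, 13.9% had a lower log2 ratio than Bmpr1a and 21.3% a lower one than Bmpr2, so a difference of this size was not rare. Under total reads the upper limit of the log2 ratio came closer to 0, at -0.50 for Bmpr1a and -0.15 for Bmpr2. Bmpr1a lies on chromosome 14 from 34410734 to 34503341 on the minus strand, opposite the antisense gene Gm17110, and Bmpr2 lies on chromosome 1 from 59763400 to 59879014 on the plus strand, where the unconfirmed transcript Gm38125 shares its strand.

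**Figure D2:**
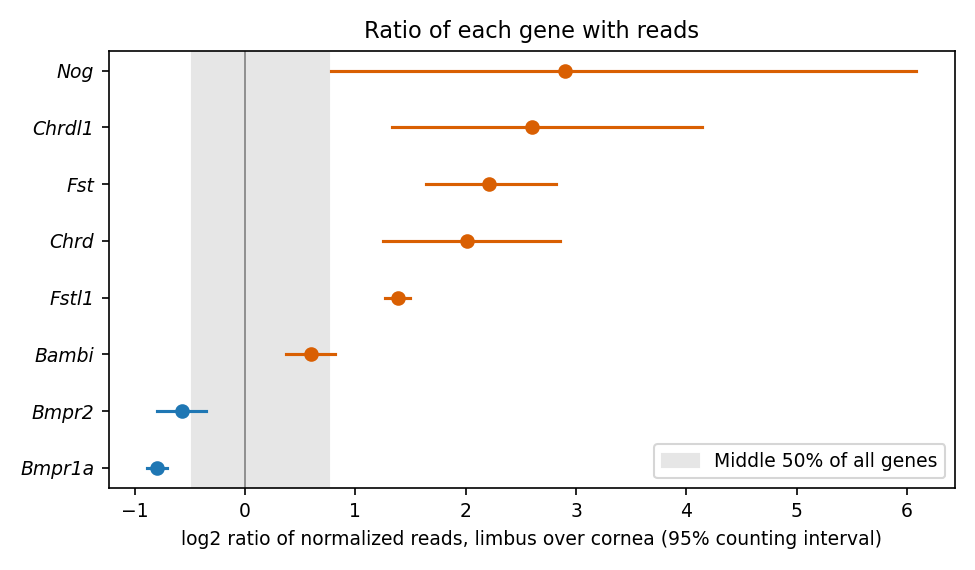
Log2 ratio of normalized reads, limbus over cornea (horizontal axis), of the 8 genes with reads (rows), with 95% counting intervals as bars; the grey band spans the middle 50% of all genes, from -0.48 to 0.76. Nog has the widest interval and Fstl1 a narrow one, the antagonists lie to the right of the band, and the points of Bmpr2 and Bmpr1a lie to the left of it with intervals that overlap each other.

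In the order of the ratios the antagonists came first and the receptors last. Nog, Chrdl1, Fst and Chrd followed one another with intervals that all overlap, so no order among these 4 is shown. Fstl1 overlaps Nog, Chrdl1 and Chrd but not Fst. Bambi overlaps Nog alone, through the wide interval of that gene, and lies below Fstl1 without overlap. Both receptors lie below Bambi without overlap. The share of all genes with a higher log2 ratio was 7.07% for Nog, 8.81% for Chrdl1, 11.5% for Fst, 13.0% for Chrd and 17.8% for Fstl1, and thus each antagonist lay in the upper part of the table but far from its extreme.

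Because every ratio above rests on the size factors, antagonist reads were also set against receptor reads of the same library, where the size factors cancel. For every 100 Bmpr1a reads the cornea library held 30.9 reads of Fstl1 and the limbus library 140.1, a change of 4.53-fold (95% CI 4.11 to 5.003 from the conditional odds ratio of the counts). Fst went from 1.03 to 8.25 reads per 100 Bmpr1a reads, an 8.03-fold change (95% CI 5.37 to 12.3). Chrd went from 0.596 to 4.18, a 7.02-fold change (95% CI 4.11 to 12.6), and Chrdl1 from 0.199 to 2.09, a 10.5-fold change (95% CI 4.35 to 30.7). For Nog the change was 13.0-fold with an interval from 2.98 to 118. Bambi, which acts at the receptor itself, went from 9.61 to 25.2 reads per 100 Bmpr1a reads, a 2.63-fold change (95% CI 2.23 to 3.10). These changes join a gene higher in the limbus to a receptor higher in the cornea, so their direction follows from the ratios above and is no separate evidence. Against Bmpr2 the change ran from 2.25-fold for Bambi (95% CI 1.81 to 2.79) to 11.1-fold for Nog (95% CI 2.52 to 101.3). The receptors kept close to each other, with 14.6 Bmpr2 reads per 100 Bmpr1a reads in the cornea against 17.0 in the limbus, and the interval of that change, 0.991 to 1.38, includes 1. These are reads and not molecules per gene, since the genes differ in length, but the change between tissues does not depend on length.

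**Figure D3:**
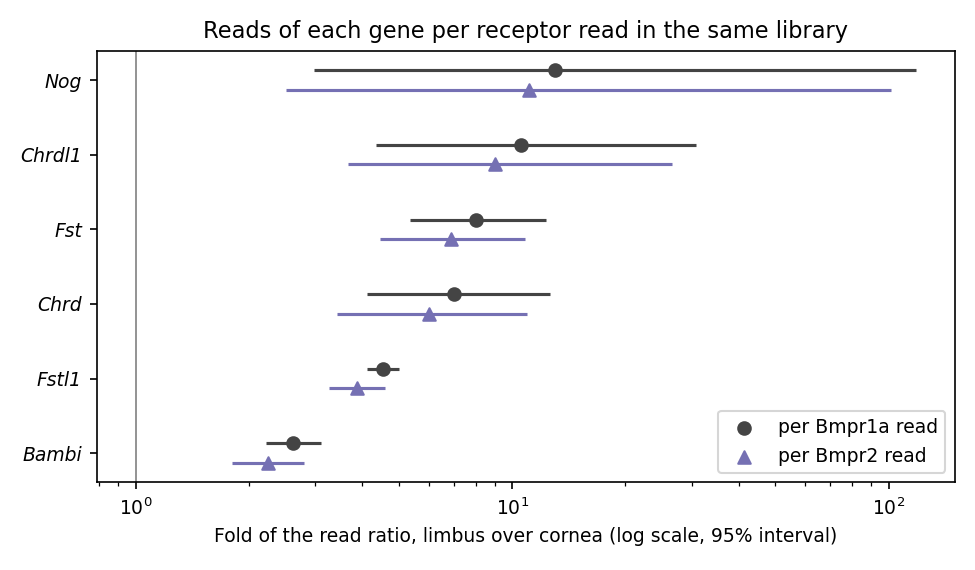
Fold of the reads of each gene per receptor read, limbus over cornea (horizontal log axis), for the 5 detected secreted antagonists and Bambi (rows), per Bmpr1a read (circles) and per Bmpr2 read (triangles) of the same library, with 95% intervals as bars. The values run from 2.25 for Bambi per Bmpr2 read to 13.0 for Nog per Bmpr1a read.

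Levels were compared between genes only per length, as reads per kilobase of exon scaled to the reads on named genes of the library (RPKM). In the cornea Bmpr1a was highest at 19.1 RPKM, followed by Fstl1 at 9.43, Bambi at 2.19, Bmpr2 at 1.31, Fst at 0.419, Chrd at 0.175, Nog at 0.0452 and Chrdl1 at 0.0340. In the limbus the level of Fstl1 was above that of Bmpr1a, at 28.4 and 12.7 RPKM. Bambi followed at 3.81, Fst at 2.23, Bmpr2 at 1.01, Chrd at 0.817, Nog at 0.390 and Chrdl1 at 0.238. The exact Poisson intervals of the levels overlapped for the neighbours Chrd and Nog, and Nog and Chrdl1, in both tissues. Those of Bmpr2 and Chrd overlapped in the limbus. Overlap of separate intervals does not show equal levels, and the differences within these pairs were not tested. The other neighbours did not overlap, so the exchange of places between Bmpr1a and Fstl1, and between Bmpr2 and Fst, was larger than counting error. Among the 6 secreted antagonists chosen here, Fstl1 made up 93.3% of the summed level in the cornea and 88.5% in the limbus. That sum was 10.1 RPKM in the cornea against 32.0 in the limbus, and without Fstl1 it was 0.674 and 3.68.

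The rest of the pathway was read from lists of 78 genes, all in the table, which were also chosen with earlier results of these data known. Of these, 11 had no reads in either library and 5 had at most 3, which left 62. Beyond counting error the limbus was higher for 33 of the 62 (53.2%) and the cornea for 13 (21.0%), beside 35.5% and 36.7% of all genes, and the median log2 ratio was 0.66. Under total reads these counts were 35 and 9, beside 46.8% and 26.9% of all genes. Acvr1, Crim1, Id4 and Neo1 then no longer differed beyond counting error, and Gdf5 and Twsg1 became higher in the limbus. Under the trimmed mean the counts were 34 and 13, and Gdf5 alone changed its call, to higher in the limbus. Besides the overlaps named with a gene, protein-coding genes also overlap Eng (Fpgs), Crim1 (Fez2), Fstl3 (Prss57), Acvr1 (Gm17409), Cfc1 (Prss40) and Gdf5 (Gm15557). Others overlap Kcp (Atp6v1fnb), Bmp8a (Oxct2a), Bmp8b (Oxct2b and Ppie) and Gdf1 (Cers1 and Upf1), which had few reads or none. The same limit as for Chrd holds for these genes. Oxct2a, Oxct2b and Cers1 lie on the same strand as the gene they overlap.

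Other extracellular antagonists came next. Of 12 with enough reads, 8 were higher in the limbus, 1 in the cornea and 3 within counting error, with a median log2 ratio of 0.93, where 35.5% of all genes were called limbal and 36.7% corneal (46.8% and 26.9% under total reads). Nbl1, a founding member of the DAN family, had the highest ratio, with 158 corneal and 1488 limbal reads (log2 ratio 3.33, 95% CI 3.09 to 3.58). At 39.2 RPKM in the limbus against 3.38 in the cornea, Nbl1 was above Fstl1 in the limbus, and Crim1 was at 29.8 RPKM there. Smoc1 and the ectodin gene Sostdc1 had log2 ratios of 3.16 (95% CI 2.82 to 3.51) and 2.74 (95% CI 1.97 to 3.60). Wfikkn2, which binds myostatin and GDF11, had 9 and 51 reads (log2 ratio 2.60, 95% CI 1.56 to 3.81), while Fstl3, another follistatin relative, had a log2 ratio of 0.62 (95% CI 0.37 to 0.86). The 1 gene higher in the cornea, Crim1, encodes a membrane-anchored protein with chordin-like repeats. It had 4534 corneal and 3782 limbal reads (log2 ratio -0.17, 95% CI -0.23 to -0.10), and its sign turned under total reads, to 0.0398. Dand5 had 81 and 65 reads, with an interval that includes 0 (-0.72 to 0.27). Cer1 was listed at 0.

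The ligands that these proteins bind were few in reads. Of 22 BMP and growth differentiation factor genes, 6 had no reads in either library and 1 had at most 3, and of the 15 others 6 were higher in the limbus, 2 in the cornea and 7 within counting error. The limbal share of the ligands was thus near the 35.5% of all genes, while their corneal share was below the 36.7% of all genes. Their median log2 ratio was 1.68, against 0.01 over all genes. At least 2-fold higher in the limbus were 8 of the 15, against 21.7% of all genes, though some of these 8 were within counting error. Only 1 was at least 2-fold higher in the cornea, against 9.21%. Bmp4, a main target of noggin and chordin, had 3 corneal and 116 limbal reads (log2 ratio 5.37, 95% CI 3.79 to 7.67), and the protein-coding model Gm15217 overlaps it on the other strand. Bmp2 had 12 and 56 reads (log2 ratio 2.32, 95% CI 1.40 to 3.35), and Bmp7 had 181 and 275 (log2 ratio 0.70, 95% CI 0.42 to 0.98). Gdf10 had 0 corneal and 61 limbal reads, a ratio of 21.7 with the cornea set to 3 reads, and the lower end of its exact interval was 17.1-fold. On the corneal side were Bmp6, with 116 and 43 reads (log2 ratio -1.34, 95% CI -1.88 to -0.82) and an overlap with Txndc5, and Bmp3, which itself opposes BMP signals, with 267 and 172 reads (log2 ratio -0.54, 95% CI -0.82 to -0.26). Follistatin binds activins, and inhibins compete for the activin receptors. Of their subunits, Inha (7 and 74 reads) and Inhbb (29 and 127 reads) were higher in the limbus, with log2 ratios of 3.50 (95% CI 2.38 to 4.86) and 2.23 (95% CI 1.64 to 2.86). Inhba, the subunit of activin A, had 1 read and 3 reads, which allows no ratio.

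Other receptors were mixed. The type II receptor Acvr2a and the type I receptors Acvr1b and Acvr1, which activins and BMPs use, were higher in the cornea as Bmpr1a and Bmpr2 were, with log2 ratios of -0.82 (95% CI -0.99 to -0.66), -0.52 (95% CI -0.63 to -0.42) and -0.24 (95% CI -0.42 to -0.06). Acvr2a overlaps Orc4, and the value of Acvr1 was within counting error under total reads. Acvrl1, the type I receptor of endothelial cells, stood apart with 34 corneal and 418 limbal reads (log2 ratio 3.72, 95% CI 3.21 to 4.27). Its co-receptor Eng had 76 and 821 reads (log2 ratio 3.53, 95% CI 3.19 to 3.89). The blood vessel endothelium markers, all 5 higher in the limbus with log2 ratios from 0.81 to 7.23, moved with both genes, and their part in the result was not tested. Bmpr1b, the other type I BMP receptor, had 0 corneal and 4 limbal reads, which was not beyond counting error. Of the other co-receptors, the repulsive guidance molecules Rgma and Rgmb had log2 ratios of 0.48 (95% CI 0.30 to 0.65) and 0.73 (95% CI 0.55 to 0.91). Neo1, which encodes their receptor neogenin, had 1132 corneal and 903 limbal reads (log2 ratio -0.23, 95% CI -0.36 to -0.10), and Cfc1, with 32 and 24, had the lowest ratio of the co-receptors and an interval that includes 0 (-1.15 to 0.49). Hemojuvelin, listed under the older symbol Hfe2 and known from skeletal muscle and liver, had 0 corneal and 55 limbal reads, a ratio of 19.6 with the cornea set to 3 reads and a lower end of the exact interval of 15.4-fold, beside the skeletal muscle markers, which had log2 ratios from 5.65 to 8.71.

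Chordin is cut by proteases of the tolloid family and carried by twisted gastrulation. Bmp1, the main one of these proteases, had 533 corneal and 933 limbal reads (log2 ratio 0.90, 95% CI 0.75 to 1.06). Tll2 went the other way on few reads, 25 corneal and 2 limbal (log2 ratio -3.55, 95% CI -6.67 to -1.54). Tll1 and Twsg1 had intervals that include 0, from -1.25 to 0.55 and from -0.03 to 0.11. Twsg1 was deeply read, with 3092 and 2977 reads, so its interval is narrow around equal values at this scaling.

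The SMADs that carry the BMP signal did not share a direction. Smad1 was higher in the limbus (log2 ratio 0.57, 95% CI 0.39 to 0.76), Smad9 too on 1 and 15 reads (log2 ratio 4.003, 95% CI 1.30 to 9.40), and Smad5 and Smad4 were higher in the cornea, with log2 ratios of -0.38 (95% CI -0.48 to -0.27) and -0.49 (95% CI -0.60 to -0.39). The inhibitory Smad6 and Smad7, which are also targets of the pathway, had log2 ratios of 0.28 (95% CI 0.04 to 0.52) and 0.49 (95% CI 0.18 to 0.81). Of the ubiquitin ligases that act on SMADs and receptors, Smurf1 was slightly higher in the limbus (log2 ratio 0.16, 95% CI 0.06 to 0.27) and Smurf2 in the cornea (log2 ratio -0.55, 95% CI -0.67 to -0.43).

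Of 10 genes known to respond to BMP signals, 8 had the higher value in the limbus and 2 had it in the cornea, with a median log2 ratio of 2.10, beside 35.5% and 36.7% of all genes. Id4 lost its call under total reads. The helix-loop-helix inhibitors were divided. Id1 had 662 corneal and 3783 limbal reads (log2 ratio 2.61, 95% CI 2.49 to 2.73), and Id3 had 222 and 2388 (log2 ratio 3.52, 95% CI 3.32 to 3.73). Id2 had 7046 and 2454 (log2 ratio -1.43, 95% CI -1.49 to -1.36), and Id4 had 202 and 138 (log2 ratio -0.45, 95% CI -0.78 to -0.13). The transcription factors Atoh8 (2 and 157 reads) and Hey1 (4 and 45 reads) had log2 ratios of 6.39 (95% CI 4.51 to 9.45) and 3.59 (95% CI 2.13 to 5.52), and both are also known from endothelial cells. Msx2 had 22 and 62 reads (log2 ratio 1.59, 95% CI 0.87 to 2.36), and Msx1 had 0 and 41, a ratio of 14.6 with the cornea set to 3 reads and a lower end of the exact interval of 11.4-fold. In which cells of the rim these genes were transcribed was not measured.

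**Figure D4:**
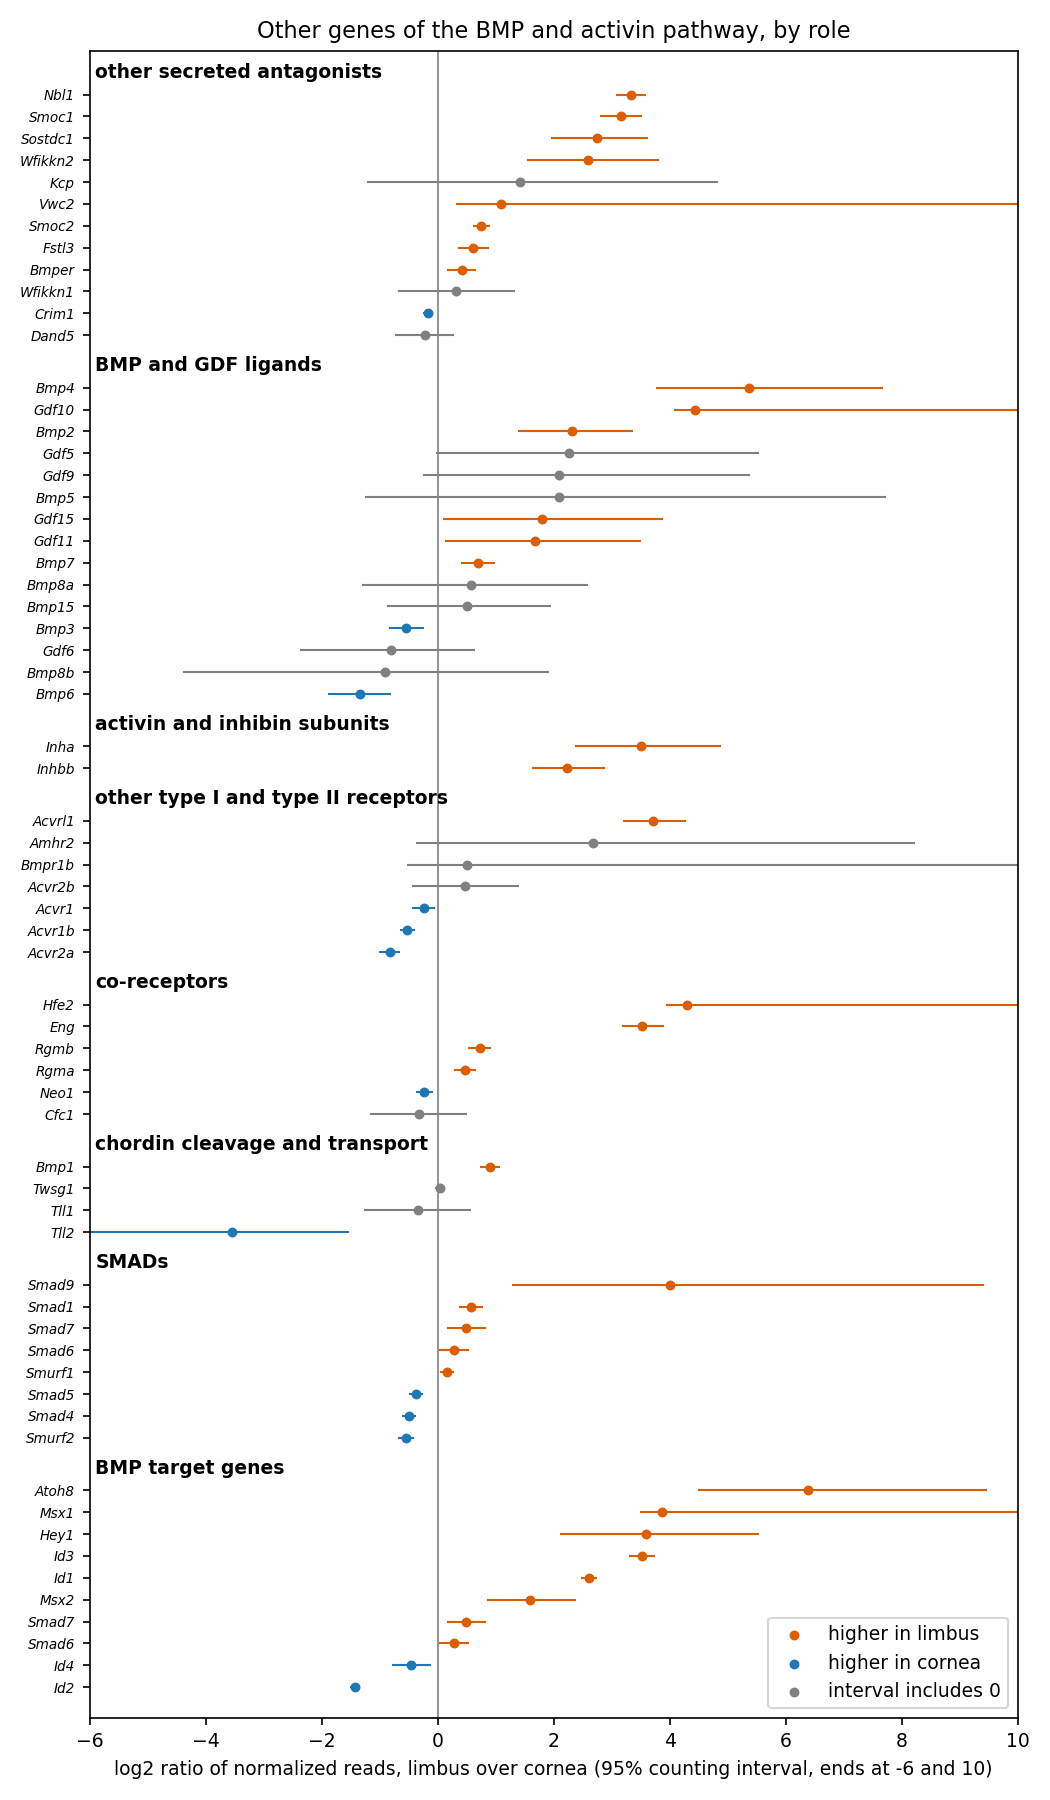
Log2 ratio of normalized reads, limbus over cornea (horizontal axis), of the other pathway genes with more than 3 reads in a library (rows, grouped by role), with 95% counting intervals as bars that are drawn to the edge where they run on; genes at 0 in the cornea are drawn at their ratio to 3 reads with a bar that starts at the lower exact limit, and Smad6 and Smad7 appear under both of their roles. Of the 62 genes, 33 are higher in the limbus (orange), 13 are higher in the cornea (blue), and 16 have an interval that includes 0 (grey).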

How the data were processed

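Corneal buttons and limbal rims of mice were dissected, pooled by tissue, and sequenced as stranded total RNA libraries. The authors worked in CLC Genomics Workbench, where adaptors were trimmed, the genome build was GRCm38 (mm10), and values were normalized as a trimmed mean of M-values. The deposited table gives per gene the mean normalized signal over both libraries, with a log2 fold change and its standard error that the authors computed, and p-values, which were not used. The name and columns of the deposited table are those of DESeq output from the authors, which their methods do not mention, and how reads were counted is not given in the sources used here.

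Of 40904 rows, 23420 name a gene, and 17484 rows (42.7%) without a name stayed out of every total. Each of the 17442 means above 0 can be written as whole reads of 1 cornea and 1 limbus library, to within 0.000105 of a whole number, with 109 cornea reads worth 102 limbus reads. The mean alone fixes the pair of read numbers for 6143 genes, Nog, Chrd and Chrdl1 among them. For the other 11299 the authors' log2 fold change and standard error were used only to pick the pair, through a shrinkage model fitted to the table, and none of their values is printed. The picked pairs met both values to within 0.001 for 17440 genes. The recovery was tested on simulated data. Reads are therefore derived values, not a deposited count table, and the planned count test across samples could not be run. The table does not name the tissue of each sign, so the direction was taken from keratins and keratocan, the cornea being the library with more Krt12, Krt5 and Kera and fewer Krt15, Krt14 and Krt19 reads.

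A count of 0 was set to 3 reads for a ratio, medians take such genes at that ratio, and their lower limit is that of the exact interval. Levels use GENCODE exons of GRCm38. Alternatives were scaling to total reads, a trimmed mean that drops 30% of log ratios and 5% of mean values at each end, a pseudocount of 1 normalized read, 0.5 added reads, and minimum means of 10 and 50. A 99% interval, Nog with 3 cornea reads, Grem1 taken at 0 and the scalings of the other pathway genes were added after the data were seen. The named genes are the 9 genes and the members of the pathway lists, each list with at least its highest and lowest ratio. Genes and lists were chosen with earlier results of these data known. The values of 1 gene of these lists are not reported here, and it is left out of their counts. Python 3.11.15, numpy 2.4.6, pandas 2.3.3, scipy 1.17.1 and matplotlib 3.10.9 were used.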

Additional observations from a re-analysis of the deposited data

How the results depend on the processing

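The 6 limbal and 2 corneal directions of the 8 genes with reads held beyond counting error under both scalings and with a 99% interval. Requiring a mean of at least 50 normalized reads left 3 genes higher in the limbus, because Nog, Chrdl1 and Chrd were then not tested. The median log2 ratio, 1.70, was 1.90 under total reads, 1.38 with a mean of at least 10, 0.60 with a mean of at least 50 and 1.38 with Grem1 taken at 0; the filters and Grem1 change which genes enter. Over the alternatives the log2 ratio of Nog ran from 2.32 to 3.11, Chrdl1 from 2.41 to 2.80, Fst from 2.17 to 2.41, Chrd from 1.95 to 2.22, Fstl1 from 1.38 to 1.59, Bambi from 0.59 to 0.80, Bmpr2 from -0.57 to -0.37 and Bmpr1a from -0.80 to -0.59. Among the other pathway genes 1 changed sign, Crim1, at 0.0398 under total reads. No paired analysis was possible because the data hold no value per numbered sample, and for the same reason no replicate could be left out. Depth limits Nog, Chrdl1 and Grem1 most, at 2, 6 and 0 cornea reads.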
